A study of Homo sapiens with 21 samples.

Results

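Levels of 48 genes of mitosis and the kinetochore were examined in U-87MG cells, a long-established line derived from a human glioblastoma, in clones that carried parkin or an empty vector. The genes were taken from a named list covering the mitotic kinases and cyclins, the spindle checkpoint, the kinetochore, mitotic kinesins and the proteins of the spindle and of cytokinesis. Of these, 47 had a probe set on the Affymetrix gene array that was assigned to them alone, among 18374 genes with such a probe set. CENPA, the centromeric histone, shared its only probe set with SLC35F6 and was therefore not described. BIRC5 had 2 probe sets, of which the brighter was used, as for every gene.

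The parkin-expressing clones were PK7, PK19 and PK25, and the vector clones were V8, V17 and V22. All of them were stable derivatives of the same line, each name stands for 1 clone, and all were plated at the same density and grown for a day before RNA extraction. Every clone had 3 arrays, numbered as sets, and V22 had 3 more, which gave 9 arrays of parkin clones and 12 of vector clones. The prefixes of the array names divided the arrays into 2 series, read here as a first one with V8, V17 and V22 and a second one with PK7, PK19, PK25 and V22, and each clone was compared with V22 of its own series. The labels do not say that the arrays of a clone came from separate cultures, so p-values measure only the spread between these arrays.

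Cells enter mitosis when CDK1 bound to cyclin B becomes active, and the chromosomes are then attached to spindle microtubules through the kinetochore, a protein assembly on each centromere. The spindle checkpoint holds the anaphase-promoting complex (APC/C), a ubiquitin ligase, in check until all kinetochores are attached, after which securin and cyclin B are degraded and the sister chromatids separate. Transcripts of most of these proteins are made late in the cell cycle, and their summed level in a culture is widely used as a measure of proliferation.

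Many promoters of this class carry a cell cycle homology region, a DNA element bound by the DREAM and MYB-MuvB complexes, and CCAAT boxes bound by NF-Y. The RefSeq promoter table for GRCh38.p14 held 40 of the 47 genes, each with 250 bases before and 50 bases after the gene start. On either strand, the letters TTTGAA occurred in 28 of the 40 promoters (70.0%) and in 15.4% of all 27305 promoters of that length. CCAAT occurred in 30 (75.0%) and in 35.7% of all promoters, and both motifs together in 23 (57.5%) and in 6.08% of all promoters. A match is a description of the letters and not a measured binding site. The promoters of 6 genes are printed 5′ to 3′ on the strand of the gene, with TTTGAA and CCAAT in capitals. TTCAAA and ATTGG, the same motifs on the other strand, are in capitals too. These genes had the largest differences from V22 in a parkin clone among those whose window held either motif. That each holds a motif is therefore no result, and CENPE was passed over because its window held neither. The 6 genes are ASPM at chr1:197146620-197146919 on the minus strand, PTTG1 at chr5:160421605-160421904 on the plus strand, PLK4 at chr4:127880643-127880942 on the plus strand, DLGAP5 at chr14:55191536-55191835 on the minus strand, CDKN3 at chr14:54396757-54397056 on the plus strand and KIF14 at chr1:200620702-200621001 on the minus strand.
ASPM: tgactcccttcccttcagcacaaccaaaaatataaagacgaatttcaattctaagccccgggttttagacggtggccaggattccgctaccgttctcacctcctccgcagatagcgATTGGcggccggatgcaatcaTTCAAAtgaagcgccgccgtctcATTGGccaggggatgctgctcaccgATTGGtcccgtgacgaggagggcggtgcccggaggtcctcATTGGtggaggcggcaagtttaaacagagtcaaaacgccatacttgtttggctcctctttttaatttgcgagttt
PTTG1: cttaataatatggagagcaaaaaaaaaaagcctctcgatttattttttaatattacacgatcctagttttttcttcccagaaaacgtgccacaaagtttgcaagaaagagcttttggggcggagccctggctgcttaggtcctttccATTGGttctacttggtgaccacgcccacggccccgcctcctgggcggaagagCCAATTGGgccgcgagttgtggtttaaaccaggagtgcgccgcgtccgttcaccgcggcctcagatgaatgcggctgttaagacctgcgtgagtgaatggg
PLK4: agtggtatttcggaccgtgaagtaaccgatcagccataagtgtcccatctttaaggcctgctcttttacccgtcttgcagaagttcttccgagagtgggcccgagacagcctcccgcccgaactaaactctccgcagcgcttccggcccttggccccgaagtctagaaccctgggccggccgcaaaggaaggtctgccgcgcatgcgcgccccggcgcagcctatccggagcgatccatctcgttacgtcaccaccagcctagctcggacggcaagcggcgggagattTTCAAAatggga
DLGAP5: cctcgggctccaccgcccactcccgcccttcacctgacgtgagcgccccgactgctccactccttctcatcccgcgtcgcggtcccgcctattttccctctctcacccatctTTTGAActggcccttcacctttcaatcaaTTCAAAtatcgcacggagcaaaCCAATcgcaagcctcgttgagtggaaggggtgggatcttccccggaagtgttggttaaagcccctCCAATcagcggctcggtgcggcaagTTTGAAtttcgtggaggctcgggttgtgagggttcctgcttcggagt
CDKN3: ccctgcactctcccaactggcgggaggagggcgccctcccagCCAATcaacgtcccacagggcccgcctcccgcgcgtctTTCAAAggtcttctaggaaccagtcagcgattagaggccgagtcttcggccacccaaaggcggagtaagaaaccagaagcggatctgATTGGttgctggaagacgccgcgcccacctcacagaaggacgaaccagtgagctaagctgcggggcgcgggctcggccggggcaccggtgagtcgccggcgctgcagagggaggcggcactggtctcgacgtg
KIF14: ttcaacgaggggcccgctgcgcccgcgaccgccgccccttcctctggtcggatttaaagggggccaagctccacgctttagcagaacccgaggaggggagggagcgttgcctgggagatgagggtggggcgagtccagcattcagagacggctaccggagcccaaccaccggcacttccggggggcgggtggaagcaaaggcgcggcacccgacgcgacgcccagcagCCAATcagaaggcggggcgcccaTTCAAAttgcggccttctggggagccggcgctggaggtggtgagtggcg
DLGAP5 held 3 copies of TTTGAA and 2 of CCAAT, ASPM 1 and 4, and CDKN3 1 and 2. PTTG1 held 3 CCAAT boxes and no TTTGAA, PLK4 held 1 TTTGAA and no CCAAT, and KIF14 held 1 of each. The promoters of CENPE, CDC25B, CDC25C, KIF2C and CKAP2 held neither motif in this window.

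The median log2 value of an array was 6.21 at the lowest and 6.37 at the highest. Of the markers of a glioblastoma line, VIM and CD44 lay at the 99.7th and 99.0th percentile of brightness and SOX9 and SLC1A3 above the 70th, whereas S100B and AQP4 fell in the dimmest 30% and GFAP and OLIG2 lay near the middle (percentiles 50.4 and 40.8). Of 19 measured markers of epithelium, blood, endothelium and neurons, SNAP25 alone lay above the 70th percentile. The summed intensity of the 5 neuron markers was 608 to 751 on the PK19 arrays and 317 to 347 on the V22 arrays of the second series, and reached 507 in PK7 and 387 in PK25. SNAP25 and SYT1 were called higher in PK19 (means of 8.84 and 6.39, against 7.51 and 4.91 in V22), while RBFOX3, STMN2 and ELAVL4 were not called in any parkin clone, and the part of these genes in the results for PK19 was not tested. In RNA from a whole culture, fewer cycling cells and less RNA per cycling cell cannot be told apart.

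The mitosis genes were bright on all arrays. Their mean log2 value was 9.58, 9.09 and 9.61 on the PK7 arrays of sets 1, 2 and 3, 9.53, 9.60 and 9.61 on the PK19 arrays, 9.54, 9.71 and 9.34 on the PK25 arrays, and 9.58, 9.65 and 9.59 on the V22 arrays of the second series. In the first series it was 9.65, 9.68 and 9.57 in V8, 9.61, 9.82 and 9.72 in V17, and 9.61, 9.50 and 9.64 in V22. The PK7 array of set 2 was thus the lowest of all, and on it all 47 genes were lower than on both other PK7 arrays, by a median of 0.51 log2 units, while the median over all probe sets was 0.016 higher there and that over genes averaging above 7 on the log2 scale differed by -0.09. On the PK25 array of set 3, 42 of 47 genes were the lowest of that clone, with a median of -0.29 for the mitosis genes and -0.12 for the genes above log2 7. These 2 arrays also had the highest array medians (6.36 and 6.37) and the lowest mean correlation with the other arrays of their clone over all probe sets (0.9891 and 0.9881).

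**Figure D1:**
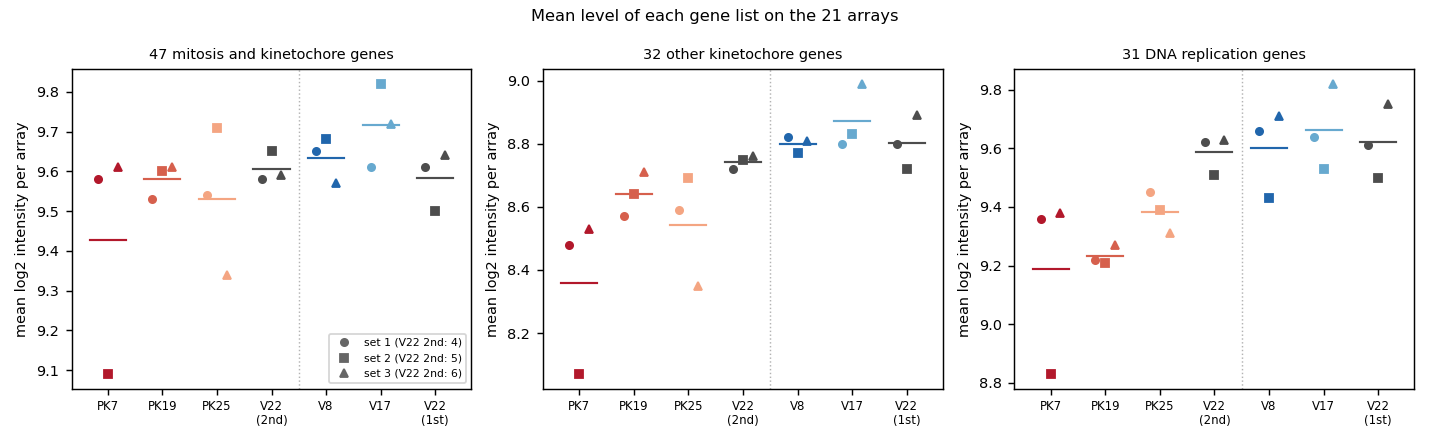
Mean log2 intensity on each of the 21 arrays (points, shape by set number) for the 47 mitosis and kinetochore genes, 32 other kinetochore genes and 31 DNA replication genes, with the mean of the 3 arrays of each clone as a bar and the 2 array series divided by a dotted line. The PK7 array of set 2 is the lowest in all 3 panels, at 9.09 for the mitosis genes, where the other parkin arrays had 9.34 to 9.71.

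Within clones the genes moved together. After the mean of each clone was taken off, the correlation of a gene with the mean of the other 46 over the 21 arrays had a median of 0.85 (0.25 to 0.95), and 42 of 47 were above 0.5. Without the PK7 array of set 2 the median was 0.73 (-0.26 to 0.92), and CDC20 (-0.26), BIRC5 (-0.13) and AURKB (-0.05) were the lowest. Values on an array share its RNA and its normalization, and 31 DNA replication genes gave a median of 0.84 over the 21 arrays, so the correlation was not particular to mitosis genes. The replication genes were not correlated without the PK7 array of set 2, and no genes outside the cell cycle were correlated. What made the genes move together was not tested.

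In PK7, 37 of the 47 genes were lower and 10 higher than in V22, with a median difference of -0.17, and 5 fell past an adjusted p of 0.05 while none rose. These were PTTG1, CENPE, PLK4, MAD2L1 and KIF11. The share of 10.6% stood beside 15.2% of all probe sets called in PK7 (7.11% higher and 8.11% lower), and beside 28.9% of 8719 genes with a mean log2 value above 7. Without the PK7 array of set 2 the median difference was 0.00, with 24 genes higher and 23 lower, and the calls were PLK1 and CKAP2 higher and PTTG1 lower, beside 12.3% of all probe sets called. The number of genes called was 8 without the PK7 array of set 1 or of set 3, and 3, 2 and 3 without the V22 arrays of sets 4, 5 and 6. For counts with 1 array left out, here and below, the share of all probe sets is given only where named. Where it is not, a change in these genes cannot be told apart from a change in all probe sets.

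In PK19, 22 genes were higher and 25 lower than in V22, with a median of -0.02. BUB3 and NEK2 rose, and ASPM, CDKN3 and DLGAP5 fell, which was 10.6% of the genes beside 14.0% of all probe sets (6.65% higher and 7.40% lower) and 24.9% of genes above log2 7. The count was 3 without the V22 array of set 4 or 6 or the PK19 array of set 2, and 2 without that of set 1. In PK25, 19 were higher and 28 lower (median -0.03), and limma called none (smallest adjusted p 0.197), beside 1.37% of all probe sets. At an unadjusted p under 0.05 there were 3, beside 3055 of 26947 probe sets. Without the PK25 array of set 3 the median was 0.04, and limma called no gene and 0.531% of all probe sets. Without that of set 2 it was -0.15, and CDC25C was called (-0.68, SE 0.15, adjusted p = 0.0255), beside 2.08% of all probe sets.

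The vector clone V8 differed from V22 as well. In V8, 31 genes were higher and 16 lower (median 0.07), and FOXM1 and UBE2C rose, beside 8.00% of all probe sets called (3.78% higher), with no call left without V8 set 1 or V22 set 2 and 1 without V8 set 3 or V22 set 3. In V17, 46 of 47 were higher than in V22, by a median of 0.13, but limma called none of them and 0% of all probe sets. At an unadjusted p under 0.05 there was 1, beside 730 of 26947 probe sets. V22 itself gave a median of -0.02 between the second and the first series with 0 genes called by limma, beside 0.0297% of all probe sets. There, 1 gene had an unadjusted p under 0.05, beside 2358 of 26947 probe sets. Counted in both directions together, the share of mitosis genes called was at or below that of all probe sets in each clone against V22. By direction, 10.6% of them were called lower in PK7, beside 8.11% of all probe sets and 17.5% of genes above log2 7. In V8, 4.26% were called higher, beside 3.78% and 6.71%. In PK19, 4.26% were called higher and 6.38% lower, beside 6.65% and 7.40% of all probe sets.

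**Figure D2:**
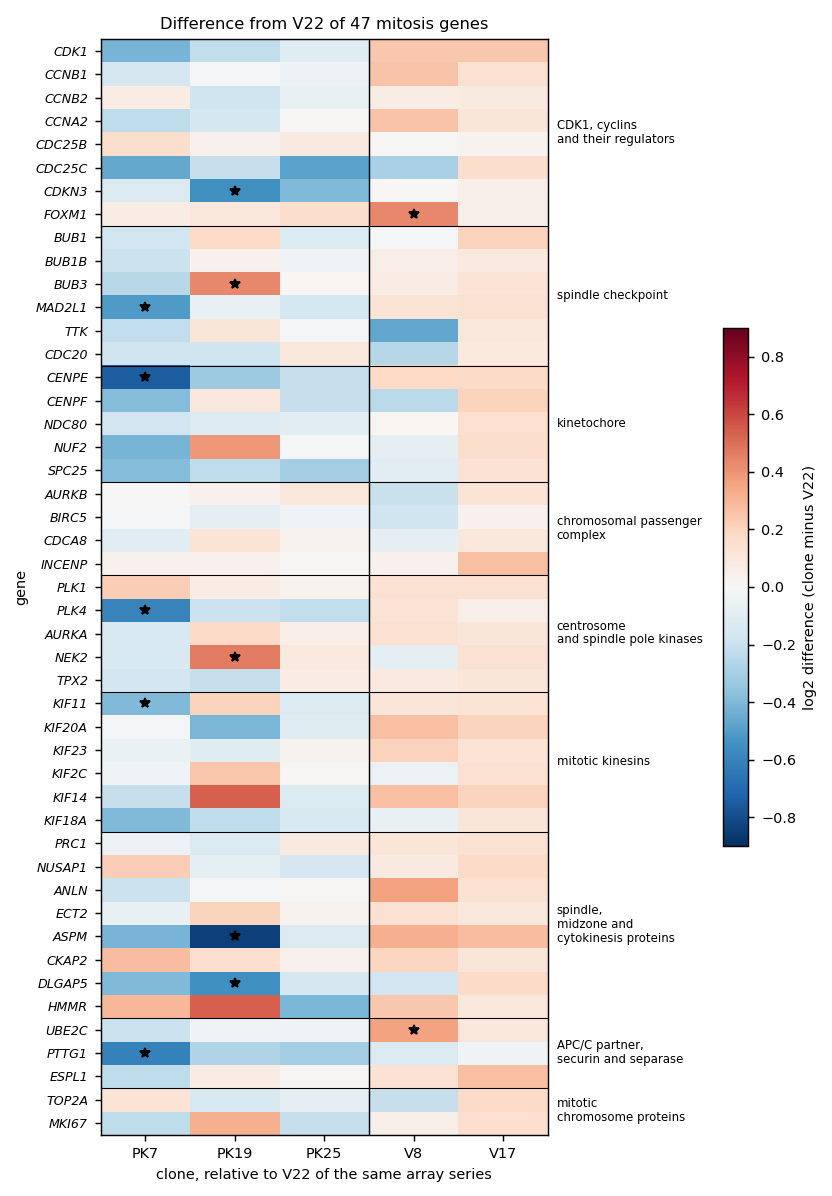
Log2 difference from V22 of the same array series for 47 mitosis and kinetochore genes in rows, ordered by role, with PK7, PK19 and PK25 left of the line and V8 and V17 right of it. Stars mark adjusted p under 0.05 by limma. Of 12 stars, 5 are in PK7, 5 in PK19, 2 in V8 and none in PK25 or V17.

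Among CDK1, the cyclins and their regulators, 1 gene of 8 was called in a parkin clone. CDKN3, a phosphatase that removes the activating phosphate of cyclin-dependent kinases, had log2 values of 9.16, 9.00 and 9.32 on the PK19 arrays and 9.69, 9.83 and 9.61 on the V22 arrays of the second series. All PK19 arrays lay below all V22 arrays, and the gene fell by 0.55 (SE 0.17, adjusted p = 0.0321). Its values were 9.87, 9.16 and 9.71 in PK7 and 9.45, 9.58 and 8.90 in PK25. The PK7 arrays overlapped V22, while the PK25 arrays all lay below it with a difference that was not called (-0.40, adjusted p = 0.355). The PK19 call was lost without any 1 of the 3 V22 arrays or of the PK19 arrays of sets 1 and 2, with adjusted p of 0.0502 to 0.135. CDK1 itself, the kinase that drives entry into mitosis, was lower on every PK7 array (8.95, 8.27 and 8.92) than on the V22 arrays (9.05, 9.27 and 9.09), but the difference of -0.42 had an adjusted p of 0.0750. For CCNB1, CCNB2 and CCNA2, which encode the mitotic cyclins, differences from V22 in the parkin clones were small, between -0.23 and 0.07, and none was called. CDC25C, a phosphatase that activates CDK1, differed by -0.46 in PK7 (adjusted p = 0.0617) and by -0.48 in PK25 (adjusted p = 0.197), and CDC25B by 0.16 and 0.08.

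FOXM1, a transcription factor that activates many G2 and mitosis genes, had values of 10.00, 9.84 and 9.95 in V8 and 9.61, 9.35 and 9.56 in V22 of the first series. The V8 arrays all lay above the V22 arrays, with a rise of 0.43 (SE 0.11, adjusted p = 0.0227), and above the V17 arrays, which had 9.58, 9.50 and 9.58. In the parkin clones the differences were 0.07, 0.10 and 0.16 and none was called. The V8 call was lost without the V8 array of set 1 or 3 or the V22 array of set 2, with adjusted p of 0.0623 to 0.116.

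The 6 spindle checkpoint genes were all lower in PK7 than in V22 (-0.51 to -0.17), with 1 call, but without the PK7 array of set 2 only 3 were lower and 3 higher (-0.33 to 0.11). MAD2L1, a checkpoint protein that binds the APC/C activator CDC20, had 9.69, 9.14 and 9.64 in PK7 and 9.95, 9.96 and 10.08 in V22. The groups did not overlap, and it fell by 0.51 (SE 0.14, adjusted p = 0.0146). Without the PK7 array of set 2 the difference was -0.33 (adjusted p = 0.108), and without the V22 array of set 6 it was -0.47 (adjusted p = 0.0645). In PK19 and PK25 the differences were -0.07 and -0.16.

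BUB3, which recruits the checkpoint kinase BUB1 to kinetochores, went the other way in PK19. Its values were 11.36, 11.26 and 11.44 in PK19, 10.77, 10.52 and 10.75 in PK7, 10.99, 11.00 and 10.84 in PK25, and 11.01, 10.86 and 10.92 in V22. The PK19 arrays stood above all others of the series and the PK7 arrays below them. BUB3 rose by 0.43 in PK19 (SE 0.10, adjusted p = 0.00339), and the difference in PK7 was -0.25 (adjusted p = 0.0954). Tested directly, PK7 minus PK19 was -0.67 (SE 0.10, adjusted p = 4e-05) and PK19 minus PK25 was 0.41 (adjusted p = 0.00491). TTK, a checkpoint kinase, had its largest difference in V8 (-0.47, adjusted p = 0.254), and BUB1, BUB1B and CDC20 lay between -0.26 and 0.21 in all clones.

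All 5 kinetochore genes were lower in PK7 (-0.74 to -0.17) and all 5 in PK25 (-0.31 to -0.02), with 1 call between them. Without the PK7 array of set 2 the differences in PK7 were -0.43 to -0.02. In PK25 all 5 genes were lowest on the array of set 3. The other PK25 arrays had 9.17 and 9.52 for NUF2 and 8.54 and 8.74 for NDC80, where V22 averaged 9.21 and 8.59. The common direction in PK25 thus rested on the array of set 3, although CENPE, CENPF and SPC25 also averaged lower without it. CENPE, the kinesin-like motor of the kinetochore, had 8.46, 7.53 and 8.45 in PK7 and 8.90, 8.97 and 8.78 in V22, with the array of set 2 far below the other PK7 arrays. It fell by 0.74 (SE 0.21, adjusted p = 0.0184), which is 1.66-fold. Without that array the difference was -0.43 (adjusted p = 0.136), and without the V22 array of set 4 or 5 it kept its size (-0.73 and -0.69) but not its call (adjusted p = 0.0554 and 0.0649).

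NUF2, a subunit of the NDC80 complex that binds microtubules, separated PK7 and PK19. It had 9.01, 8.28 and 9.08 in PK7, 9.50, 9.65 and 9.65 in PK19, and 9.17, 9.35 and 9.12 in V22. All PK7 arrays were below and all PK19 arrays above the V22 arrays, although neither difference from V22 was called (-0.42, adjusted p = 0.131, and 0.39, adjusted p = 0.194). PK7 minus PK19 was -0.82 (SE 0.18, adjusted p = 0.00282), and it was called in all 15 alternatives (-0.96 to -0.53). NDC80, its partner, was at -0.17 in PK7 and -0.12 in PK19, and SPC25, another subunit, was at -0.39, -0.23 and -0.31 in PK7, PK19 and PK25 with adjusted p of 0.0932, 0.424 and 0.458. CENPF, a large outer kinetochore protein, differed by -0.39 in PK7 (adjusted p = 0.167), 0.10 in PK19 and -0.21 in PK25.

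The chromosomal passenger complex corrects faulty attachments through the kinase Aurora B. None of its genes AURKB, BIRC5, CDCA8 and INCENP was called in any clone, and their differences from V22 in the parkin clones stayed between -0.10 and 0.12. The dimmer probe set of BIRC5 differed by -0.00, -0.11 and 0.17 in PK7, PK19 and PK25, where the brighter one gave -0.02, -0.09 and -0.03.

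Of the centrosome and spindle pole genes, 2 were called in a parkin clone. PLK4, the kinase that starts centriole duplication, had 8.65, 8.01 and 8.85 in PK7 and 9.07, 9.16 and 9.09 in V22, and fell by 0.60 (SE 0.16, adjusted p = 0.0141). The PK7 arrays all lay lower, and without the one of set 2 the difference was -0.36 (adjusted p = 0.0982). Without the V22 array of set 5 it was -0.58 (adjusted p = 0.0513). NEK2, a kinase that splits the centrosome at the onset of mitosis, had 8.57, 8.74 and 8.74 in PK19, 8.34, 7.67 and 8.24 in PK7 and 8.06, 8.40 and 8.22 in V22. It rose by 0.46 in PK19 (SE 0.15, adjusted p = 0.0410), and PK7 minus PK19 was -0.60 (SE 0.15, adjusted p = 0.00650). The call against V22 was lost without V22 set 4 or 6 or any 1 of the PK19 arrays (adjusted p of 0.0524 to 0.188), whereas that between PK7 and PK19 was kept in all 15 alternatives. PLK1, the principal mitotic polo kinase, was not called in PK7 over all arrays (0.22, adjusted p = 0.377) but rose by 0.44 without set 2 (SE 0.11, adjusted p = 0.00860). AURKA and TPX2, a spindle pole kinase and its activator, lay between -0.21 and 0.17 in the parkin clones.

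The mitotic kinesins, motors that build the spindle and position chromosomes, were all lower in PK7 (-0.40 to -0.02), but 3 of the 6 were higher without the PK7 array of set 2 (-0.25 to 0.15). KIF11, which slides spindle microtubules apart, had 9.44, 8.99 and 9.42 in PK7, 9.77, 9.93 and 9.92 in PK19 and 9.62, 9.74 and 9.67 in V22. PK7 lay below V22 and PK19 above it on every array. The fall in PK7 was 0.40 (SE 0.12, adjusted p = 0.0322), and PK7 minus PK19 was -0.59 (SE 0.12, adjusted p = 0.00163). The fall against V22 lost its call without PK7 set 2 (-0.25, adjusted p = 0.208) and without each V22 array in turn (adjusted p of 0.0583 to 0.106).

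KIF14, a kinesin of the midbody and of cytokinesis, had 8.59, 8.91 and 8.85 in PK19, 8.27, 7.49 and 8.31 in PK7, 8.07, 8.61 and 7.66 in PK25 and 8.17, 8.42 and 8.12 in V22. The PK19 arrays were above the V22 arrays, but the difference of 0.54 was not called (SE 0.21, adjusted p = 0.114). Between parkin clones, PK7 minus PK19 was -0.75 (adjusted p = 0.0190) and PK19 minus PK25 was 0.67 (adjusted p = 0.0413), where 1 PK25 array reached into the PK19 range. The first was lost without PK7 set 2 (-0.49, adjusted p = 0.135) or PK19 set 2 or 3 (adjusted p = 0.0697 and 0.0652), and the second without PK25 set 1 or 3 or PK19 set 2 or 3 (adjusted p of 0.101 to 0.252). KIF20A, a kinesin of the central spindle, had a difference of -0.41 in PK19 (SE 0.14, adjusted p = 0.0628). KIF18A, which limits chromosome oscillation, had -0.40, -0.23 and -0.14 in PK7, PK19 and PK25 and was not called. KIF23, of the spindle midzone, and KIF2C, which takes microtubules apart, lay between -0.11 and 0.25 in the parkin clones with no call.

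ASPM had the largest difference of any of the 47 genes from V22. This spindle pole protein, whose loss causes microcephaly, had 8.61, 8.88 and 8.78 in PK19, 9.34, 8.76 and 9.41 in PK7, 9.35, 9.87 and 9.16 in PK25 and 9.46, 9.84 and 9.47 in V22. All PK19 arrays lay below all V22 arrays, and ASPM fell by 0.84 (SE 0.18, 95% interval -1.20 to -0.47, adjusted p = 0.00206), which is 1.78-fold. This call was kept in all 15 alternatives (-0.90 to -0.58). The PK7 arrays were also below V22 (-0.42, adjusted p = 0.128), while PK25 overlapped it (-0.13). PK19 minus PK25 was -0.70 (adjusted p = 0.00871), and -0.50 without PK25 set 2 (adjusted p = 0.0575). In the first series V8 had 9.67, 9.86 and 9.61 and V17 had 9.56, 9.81 and 9.64, against 9.50, 9.22 and 9.46 in V22, all above it without a call (0.32 and 0.28).

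DLGAP5, a microtubule-binding protein of kinetochore fibres, had 9.87, 10.07 and 10.05 in PK19 and 10.54, 10.60 and 10.50 in V22. It fell by 0.55 in PK19 (SE 0.14, adjusted p = 0.0105), and without PK19 set 1 by 0.49 (adjusted p = 0.0568). In PK7 it differed by -0.40 (adjusted p = 0.0699). The groups did not overlap in PK19.

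HMMR, a hyaluronan receptor that also binds spindle microtubules, ordered the parkin clones differently from ASPM. It had 8.71, 8.66 and 8.99 in PK19, 8.76, 8.04 and 8.85 in PK7, 7.94, 8.12 and 7.43 in PK25 and 8.17, 8.28 and 8.28 in V22. The PK19 arrays were all above V22 and the PK25 arrays all below it, with 0.54 (adjusted p = 0.0906) and -0.41 (adjusted p = 0.456). PK19 minus PK25 was 0.96 (SE 0.20, adjusted p = 0.00229), which is 1.94-fold, and was called in all 15 alternatives (0.76 to 1.16). PK7 minus PK25 was 0.72 (adjusted p = 0.0209), which was lost without PK7 set 1 or 3 or PK25 set 3 (0.61, 0.57 and 0.52, adjusted p of 0.0920 to 0.131).

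CKAP2, a spindle-associated protein, differed by 0.28 in PK7 (adjusted p = 0.0650) and rose by 0.36 without set 2 (SE 0.10, adjusted p = 0.0239). PRC1, NUSAP1, ANLN and ECT2, which bundle microtubules or act in cleavage, lay between -0.19 and 0.22 in the parkin clones with no call.

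PTTG1 encodes securin, the inhibitor of separase that is destroyed at anaphase. It had 10.45, 9.99 and 10.33 in PK7, 10.64, 10.53 and 10.65 in PK19, 10.44, 10.80 and 10.45 in PK25 and 10.92, 10.86 and 10.83 in V22. Every array of the 3 parkin clones lay below every V22 array of the series. PTTG1 fell by 0.61 in PK7 (SE 0.12, 95% interval -0.86 to -0.37, adjusted p = 0.001), and this was called in all 15 alternatives (-0.71 to -0.48). In PK19 and PK25 the differences of -0.27 (adjusted p = 0.179) and -0.31 (adjusted p = 0.297) were not called. V8 and V17 overlapped V22 in the first series, with 10.77, 10.87 and 10.72, 10.88, 11.03 and 10.74, and 11.00, 10.82 and 10.91. ESPL1, separase itself, differed by -0.23, 0.07 and 0.01 in PK7, PK19 and PK25.

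UBE2C, the ubiquitin-conjugating enzyme of the APC/C, had 10.27, 10.24 and 10.21 in V8 and 9.96, 9.83 and 9.85 in V22 of the first series. It rose in V8 by 0.36 (SE 0.09, adjusted p = 0.0177) with no overlap of the arrays, and in the parkin clones it lay at -0.19, -0.03 and -0.03. The V8 call was lost without V8 set 1 or V22 set 2 or 3 (adjusted p of 0.0529 to 0.0714).

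MKI67, whose product Ki-67 coats mitotic chromosomes and is the standard proliferation marker, had 10.52, 10.85 and 10.63 in PK19, 10.16, 9.94 and 10.25 in PK7, 10.07, 10.35 and 10.00 in PK25 and 10.21, 10.55 and 10.28 in V22. PK19 overlapped V22 (0.32, adjusted p = 0.0851), as did PK7 (-0.23) and PK25 (-0.21). PK7 minus PK19 was -0.55 (SE 0.12, adjusted p = 0.00240) and PK19 minus PK25 was 0.53 (SE 0.12, adjusted p = 0.00371), with no overlap in either. Leaving out any 1 array kept both calls. TOP2A, the topoisomerase that untangles chromosomes, differed by 0.12, -0.14 and -0.09 in PK7, PK19 and PK25.

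**Figure D3:**
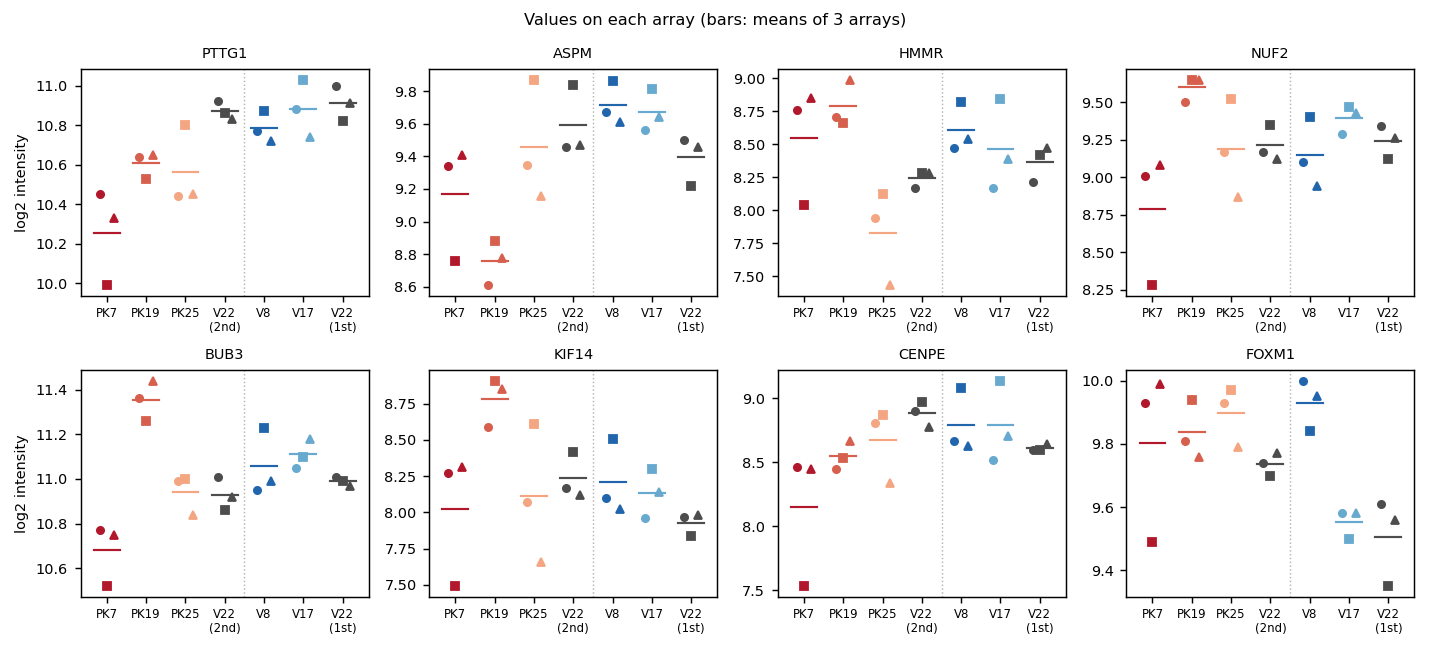
Log2 intensity of 8 genes on each of the 21 arrays (points, shape by set number as before), with the mean of 3 arrays as a bar and the 2 series divided by a dotted line. PTTG1 is below V22 on all parkin arrays, ASPM is lowest in PK19, BUB3 and KIF14 are highest in PK19, HMMR is lowest in PK25, and FOXM1 is higher in V8 than in V17 and V22.

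Tested directly between parkin clones, 7 of the 47 genes were lower in PK7 than in PK19 and none higher (BUB3, MAD2L1, NUF2, NEK2, KIF11, KIF14 and MKI67), beside 15.8% of all probe sets called (7.94% lower). This share of 14.9% also stood beside 29.7% of genes above log2 7 (15.5% lower). The median of PK7 minus PK19 was -0.17, and 0.02 without the PK7 array of set 2, where 9 genes were called beside 14.5% of all probe sets. Of these, 5 were lower in PK7 (BUB3, NUF2, NEK2, KIF11 and MKI67) and 4 higher, namely CDKN3 by 0.63, ASPM by 0.62, CCNB2 by 0.41 and PLK1 by 0.37, so that the single direction of the calls rested on that array. MAD2L1 (-0.26, adjusted p = 0.225) and KIF14 were lost without it. PK7 and PK25 differed in HMMR alone, beside 13.9% of all probe sets called (7.53% higher), and in 3 genes (PLK1, NUSAP1 and HMMR, all higher in PK7) without PK7 set 2, beside 11.3% of all probe sets, and 2 genes without PK25 set 2 or set 3. PK19 and PK25 differed in 5 genes, with BUB3, KIF14, HMMR and MKI67 higher and ASPM lower in PK19, beside 14.9% of all probe sets (8.12% higher and 6.77% lower). The vector clones V8 and V17 differed in FOXM1 (0.38, SE 0.11, adjusted p = 0.0432), beside 8.31% of all probe sets (3.37% higher), and this call was lost without any 1 of the 6 arrays (adjusted p of 0.0540 to 0.128).

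The question of whether parkin clones as a group differed from vector clones was addressed at the level of clones. Over the 3 parkin and 3 vector clone means, with the series linked through V22, 36 genes were lower and 11 higher in the parkin clones with a median of -0.11. Limma called none (smallest adjusted p 0.306), beside 0.00371% of all probe sets. At an unadjusted p under 0.05 there were 14 of 47, beside 3787 of 26947 probe sets and 1154 of 8719 genes above log2 7. Genes that move together are not independent in such a count. ASPM differed by -0.66 (SE 0.19), CENPE by -0.55 (SE 0.15) and CDK1 by -0.41 (SE 0.11). These SEs count V17 and V22 as separate clones, although limma called 0 of 26947 probe sets between them. The vector arm may therefore hold fewer than 3 distinct samples. With arrays as observations and both arms taken relative to V22, the parkin clones lay 0.15 below the vector clones in the median, with 39 genes lower, 8 higher and none called by limma, beside 1.27% of all probe sets. At an unadjusted p under 0.05 there were 10, beside 3127 of 26947 probe sets. The smallest adjusted p, 0.0926, was that of ASPM (-0.76, SE 0.21), and ASPM was called without the PK25 array of set 2 (-0.83, SE 0.18, adjusted p = 0.0251), beside 1.44% of all probe sets.

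To see how genes nearby on the same chromosome behaved, each gene was set beside the median of its 50 nearest measured neighbours among 8717 genes that had a position and averaged above 7 on the log2 scale. In PK19, the chromosome 10 genes BUB3, KIF11 and MKI67 had neighbour medians of 0.385, 0.356 and 0.377, and the chromosome 14 genes CDKN3 and DLGAP5 had -0.517 and -0.452. The differences of BUB3, CDKN3 and DLGAP5 from these medians were 0.05, -0.02 and -0.11 and none was called, whereas all 3 were called over the same 8717 genes with nothing subtracted. Between PK7 and PK19 the calls of BUB3, KIF11, MKI67 and MAD2L1 ended in the same way, with -0.14, -0.05, -0.04 and -0.19, as did those of BUB3 and MKI67 between PK19 and PK25, with -0.00067 and 0.15. In PK7, the chromosome 4 genes CENPE, PLK4 and MAD2L1 had neighbour medians of -0.298, -0.293 and -0.295, and remained lower by 0.44, 0.31 and 0.22, of which PLK4 alone was called (adjusted p = 0.0413). KIF11 in PK7 was then at -0.21 with an adjusted p of 0.0834. FOXM1 on chromosome 12 had a neighbour median of 0.577 in V8, above its own difference of 0.43.

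Other genes stood apart from their neighbours. With the neighbour median taken off, PTTG1 in PK7 was at -0.48 (adjusted p = 0.00293) and ASPM in PK19 at -0.58 (adjusted p = 0.00333). In PK19, NUF2 (0.52), KIF14 (0.66), HMMR (0.56) and NEK2 (0.30) were called higher and KIF20A (-0.44) lower, making 6 genes of 47 beside 28.1% of the placed genes. In PK7, 9 of 47 were called, CKAP2 higher and 8 lower, beside 31.3% of the placed genes. FOXM1 was among the 8 (-0.28, adjusted p = 0.0204), although its mean was higher in PK7 (9.8) than in V22 (9.74). Its neighbour median in PK7 was 0.367. The PK7 array of set 2 is part of these calls, and the subtraction was not repeated without that array. Testing the placed genes alone with nothing subtracted gave 12 calls in PK7 and 8 in PK19, beside 37.8% and 30.8% of the placed genes, so the subtraction itself lowered the counts. PK25 had 0 genes called by limma and V8 had 3 (CKAP2 and UBE2C higher, TTK lower), beside 2.37% and 12.9%. The DNA of the clones is not described here, and what moved neighbouring genes together was not tested.

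**Figure D4:**
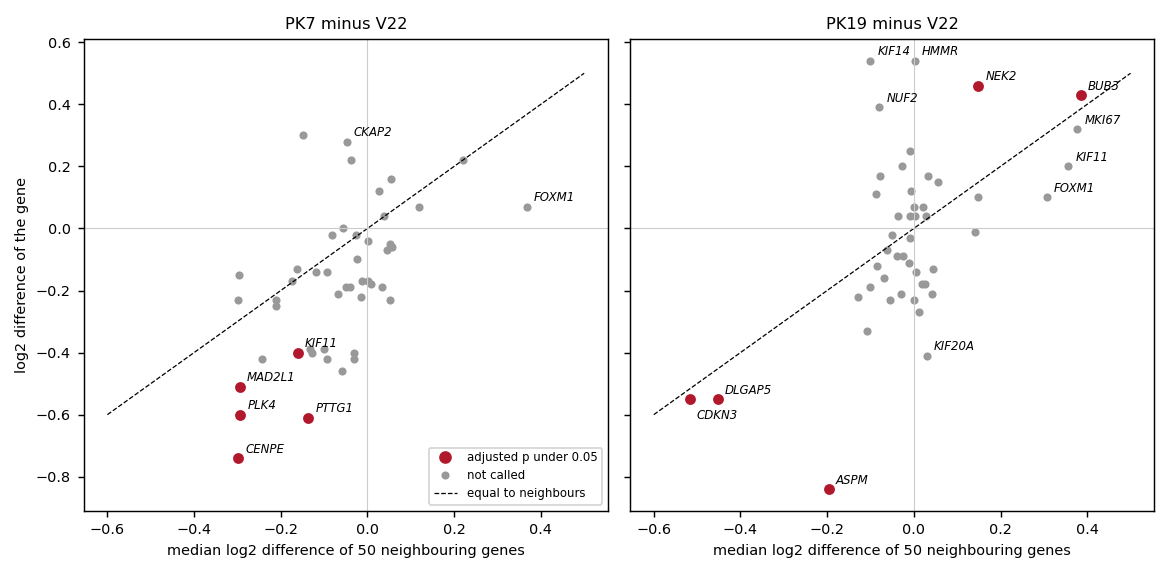
Log2 difference of each of the 47 genes from V22 against the median difference of its 50 neighbouring genes, in PK7 (left) and PK19 (right), with called genes in red and equality as a dashed line. BUB3, CDKN3 and DLGAP5 in PK19 lie close to the line, whereas ASPM in PK19 and PTTG1 in PK7 lie below it and KIF14, HMMR and NUF2 in PK19 above it.

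Other genes of mitosis and replication were counted in 7 further lists. Neighbour medians are given only for the 47 genes, so genes of these lists were not set beside nearby genes. CENPM, NCAPH2, GTSE1 and MCM5, named below, all lie on chromosome 22, with -0.77, -0.84, -0.55 and -1.11 in PK7. NCAPG and ANAPC4 (-0.61 and -0.60 in PK7) lie on chromosome 4, like CENPE, PLK4 and MAD2L1. NCAPD2 (0.52 in PK7) lies on chromosome 12, like FOXM1. Whether nearby genes shared these differences was not tested. Over all probe sets, 8.11% were called lower and 7.11% higher in PK7, 7.40% and 6.65% in PK19, 0.939% lower in PK25 and 4.22% lower in V8, and among the genes above log2 7 the shares called lower were 17.5%, 14.6%, 1.79% and 7.72%. Of 32 other kinetochore and centromere genes, 15 fell in PK7 and none rose (46.9%, median -0.44), and 6 fell (18.8%) without the PK7 array of set 2 (median -0.26), where 6.25% of all probe sets were lower. In PK19, 5 fell and 1 rose, in PK25 1 fell, which was lost without the PK25 array of set 3, and in V8 1 fell. MIS12, which anchors outer kinetochore proteins, fell in PK7 by 0.76 (adjusted p = 1.8e-05), in PK19 by 0.42 (adjusted p = 0.00470) and in V8 by 0.40 (adjusted p = 0.0132), and without the PK7 array of set 2 by 0.71. CENPM, a centromere protein, averaged 7.92 in PK7 and 8.69 in V22 (-0.77, adjusted p = 0.000360), with -0.09 in PK19. CENPL, of the same centromere network, fell in PK19 by 0.74 (adjusted p = 0.000200).

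Of 25 other kinesin, spindle and cytokinesis genes, 5 fell in PK7 (20%, and 8% or 2 genes without set 2), and 2 rose and 2 fell in PK19. In the vector clone V8, 3 fell (12.0%), beside 4.22% of all probe sets. KIFC1, a minus-end kinesin that clusters centrosomes, fell by 0.90 in PK7, by 0.82 in PK19 and by 0.67 in V8 (adjusted p = 0.000160, 0.000380 and 0.00516), and was at -0.00 in PK25. CEP192, a centrosome scaffold, fell in PK7 by 0.58 and in PK19 by 0.36. It averaged 7.96 in PK7 and 8.18 in PK19, against 8.54 in V22 of the second series and 8.22 in V22 of the first. The PK19 mean was thus close to that of V22 in the first series. BORA, an activator of Aurora A and PLK1, rose in PK19 by 0.63 and fell in V8 by 0.64.

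Among 18 condensin and cohesin genes, 6 fell (33.3%) and 1 rose in PK7, and 2 fell (11.1%) and 2 rose without set 2. The condensin subunits NCAPG and NCAPH2 fell by 0.61 and 0.84 in PK7, and NCAPD2 rose by 0.52 in PK7 and by 0.40 in V8. Of 15 APC/C genes, 3 fell in PK7 (20%, and 2 or 13.3% without set 2), 1 fell and 1 rose in PK19, and 1 fell in V8 (6.67%). With arrays as observations and both arms taken relative to V22, 1 was higher and 1 lower in parkin than in vector clones (13.3%), beside 1.27% of all probe sets. Over the clone means none was called. UBE2S, which extends ubiquitin chains for the APC/C, fell by 1.04 in PK7 (adjusted p = 3.2e-05), ANAPC4 by 0.60 in PK7, and ANAPC11, the catalytic RING subunit, by 1.01 in PK19 (adjusted p = 1.7e-07), where its arrays lay between 7.15 and 7.35 and those of V22 between 8.20 and 8.33. UBE2S, ANAPC11 and KIFC1 had 2 probe sets each and WEE1, named below, had 3, and only the brightest of each is described.

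Among 14 kinases, phosphatases and partners of mitotic entry, 2 rose and 2 fell in PK7 (14.3% each), and 1 rose and 2 fell in PK19. In V8, 2 rose (14.3%), beside 3.78% of all probe sets. WEE1, the kinase that inhibits CDK1, fell by 0.53 in PK7 and by 0.69 in PK19 (adjusted p = 0.00119 and 7.1e-05). PLK2, a polo kinase of G1 and stress, rose by 1.59 in PK7 (adjusted p = 4.6e-06), and GTSE1, a microtubule-binding protein of G2 and S phase, fell by 0.55 there. Of 12 DREAM and MYB-MuvB genes, which govern this transcription programme, 3 fell in PK19 (25%) and 1 rose and 1 fell in PK7 (8.33% each). In V8, 1 fell (8.33%). MYBL2, the MYB protein of that complex, fell by 0.94 in PK19 (adjusted p = 6.8e-06) with 8.15 to 8.19 on its arrays and 9.05 to 9.18 on the V22 arrays, and was at 0.15 in PK7. RBL2, a pocket protein that represses these genes in quiescence, rose by 0.59 in PK7 and fell by 0.59 in PK25 (adjusted p = 0.00613 and 0.0432), and the fall in PK25 lost its call without the PK25 array of set 3. RBBP4, a histone-binding subunit of the MuvB core, fell by 0.36 in PK19.

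DNA replication genes, which peak earlier in the cycle, formed the last list. Of 31, 9 fell in PK7 (29.0%), 10 in PK19 (32.3%) and 1 in PK25, with medians of -0.38, -0.29 and -0.17. Without the PK7 array of set 2, 6 fell there (19.4%, median -0.16), and without the PK25 array of set 3 none was called in PK25. In V8, 2 fell and 1 rose (median 0.02). MCM5, a subunit of the replicative helicase, fell by 1.11 in PK7 and by 0.57 in PK19, MCM3 by 0.75 and 0.99, and POLD1, the catalytic subunit of DNA polymerase delta, by 1.10 and 0.71. In V8, MCM3 fell by 0.56 and POLD1 by 0.53. No test compared these lists with the mitosis genes.

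**Figure D5:**
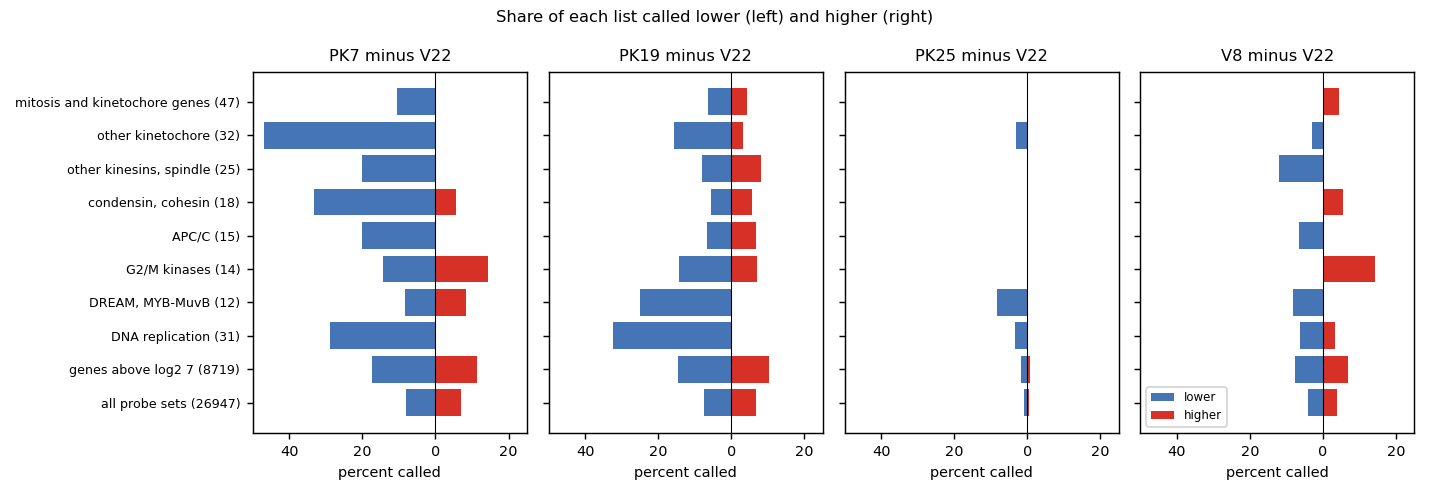
Percent of each gene list called lower (blue, to the left) and higher (red, to the right) by limma at an adjusted p under 0.05 in PK7, PK19, PK25 and V8 against V22, with the number of genes in parentheses and all probe sets at the bottom. In PK7, 46.9% of the other kinetochore genes were called lower, 10.6% of the 47 mitosis genes, 17.5% of the genes above log2 7 and 8.11% of all probe sets. Without the PK7 array of set 2 the share of the other kinetochore genes was 18.8%.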

How the data were processed

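Transcript levels were measured on Affymetrix whole-transcript gene arrays in 21 samples. The authors deposited RMA intensity values on a linear scale for 26947 probe sets, per the submitters' processing notes, which give no RMA version; joint normalization of the 21 arrays is not given in the sources used here. Values were converted to log2 (none missing, no identical columns). Arrays have no counted depth, so their number limits the precision. The platform annotation gave 1 symbol for 19305 probe sets, several for 1750 and did not list 5892. The brightest probe set stood for a gene.

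Limma 3.58.1 (lmFit, eBayes) in R 4.3.3 was fitted to all 21 arrays with 7 group means, with Benjamini-Hochberg adjustment over all probe sets in each comparison and calls at adjusted p under 0.05. Clone means were compared 3 against 3. The fit was tested on simulated data with independent noise for each probe set and array. That test does not cover genes that move together on an array, as the mitosis genes did. The members and lists were chosen with earlier results of these data known. All 47 measured genes were accounted for, those called or with the largest difference in each role were given by array, and of each further list up to 3 genes with the smallest adjusted p in a parkin clone were named. CDC25C, PLK1 and CKAP2 without single arrays were named after their values were seen. Neighbours came from the gene order of RefSeq GRCh38.p14, as did the promoters. The introduced gene's own transcript is not reported here.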

Additional observations from a re-analysis of the deposited data

Results flagged for a closer look

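The differences between clones of the same kind that passed an adjusted p of 0.05 by limma are listed here because the clones' differences from V22 were unequal by a direct test. Among parkin clones, PK7 minus PK19 was -0.67 for BUB3, -0.44 for MAD2L1, -0.82 for NUF2, -0.60 for NEK2, -0.59 for KIF11, -0.75 for KIF14 and -0.55 for MKI67. PK19 minus PK25 was 0.41 for BUB3, 0.67 for KIF14, -0.70 for ASPM, 0.96 for HMMR and 0.53 for MKI67. PK7 minus PK25 was 0.72 for HMMR. Between vector clones, V8 minus V17 was 0.38 for FOXM1. Single values were not tested for outliers within groups of 3 arrays.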

How the results depend on the processing

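Of 26 named calls, 5 held under every alternative: PTTG1 in PK7 and ASPM in PK19 against V22, NUF2 and NEK2 between PK7 and PK19, and HMMR between PK19 and PK25. Of 375 values of the 24 results that answer a comparison, 320 did not move and 55 did, where a count within 1.5 times its reported value and a median within 0.143 log2 units, the pooled SD between arrays, counted as unmoved. In PK7 against V22, the 5 calls became 8 with the dimmest 30% of probe sets left out, 3 with the series fitted separately, 3 with at least 1.5-fold required and 9 with the neighbour median subtracted, a setting that also tested only the 8717 placed genes. With those genes tested and nothing subtracted, an alternative chosen after the data were seen, the calls were 12 in PK7, 8 in PK19, 12 between PK7 and PK19, 6 between PK7 and PK25, 8 between PK19 and PK25, 4 between V8 and V17 and 1 (ASPM) between parkin and vector clones relative to V22. In PK19 they became 3 with the series fitted separately and 1 at 1.5-fold, and in V8 1 with arrays centred on their medians and 0 at 1.5-fold. Without the set 2 arrays of the parkin clones and V22 set 5, 2 genes were called in PK7 (median 0.01), 1 in PK25, 12 between PK7 and PK19 (median 0.03), 6 between PK7 and PK25 (median 0.12), 8 between PK19 and PK25, and 1 (ASPM) between parkin and vector clones relative to V22. PK7 minus PK25 had 2 calls after quantile normalization, 2 with a trended and robust variance, 2 with the replicate block and 4 with neighbours subtracted. V8 minus V17 had 2, 0, 2, 2, 2 and 3 calls with quantile normalization, centring, dim probe sets left out, all probe sets of a gene averaged, the trended variance and neighbours subtracted, and parkin against vector clones relative to V22 had 1 (ASPM) with neighbours subtracted. Among the named calls, subtracting neighbours reversed FOXM1 in V8 against V22 (-0.12) and V17 (-0.14) and BUB3 in PK19 minus PK25 (-0.00067). Apart from these subtractions and left-out arrays, the cause was not tested. Deviations from the clone means correlated between arrays of the same set at 0.0591 to 0.216 in the first series, where all 9 values lay above the 18 for other sets (-0.141 to 0.0533), and at -0.0917 to 0.381 among parkin clones (other sets -0.365 to 0.323). Not every pair passed 0.1 and the labels do not say that the number pairs arrays, so the first series gives only a hint from the data. With a replicate block by set, the calls were 4 in PK7, 5 in PK19, 0 in PK25, 2 in V8, 0 in V17, 8 between PK7 and PK19 and 4 between PK19 and PK25, and KIF11 in PK7, NEK2 in PK19 and KIF14 in PK19 minus PK25 were not called (adjusted p = 0.0505, 0.0655 and 0.0605). Fitting the series separately ended 7 named calls (MAD2L1 and KIF11 in PK7, CDKN3 and NEK2 in PK19, MAD2L1 and KIF14 between PK7 and PK19, KIF14 between PK19 and PK25), and centring ended 4 (NEK2 in PK19, FOXM1 in V8 against V22 and V17, KIF14 between PK19 and PK25). Leaving out 1 array at a time gave 2 to 8 calls in PK7 (median -0.27 to 0.00), 2 to 5 in PK19, 0 to 1 in PK25 (median -0.15 to 0.04), 0 to 2 in V8, 5 to 10 between PK7 and PK19 (median -0.28 to 0.02), 1 to 3 between PK7 and PK25 (median -0.22 to 0.04), 4 to 7 between PK19 and PK25, 0 to 1 between V8 and V17, and 0 to 1 between parkin and vector clones relative to V22.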
